A study of Homo sapiens with 4 samples.

Results

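The ERK output and feedback genes are 10 genes whose transcripts are known to follow the activity of the kinase ERK: DUSP4, DUSP5, DUSP6, SPRY2, SPRY4, SPRED1, SPRED2, ETV4, ETV5 and PHLDA1. They were listed by symbol, with earlier results of these data known. All 10 were found among 25798 gene IDs of the deposited tables. Levels were measured by RNA sequencing in SW1990, an established human line of pancreatic adenocarcinoma, whose genotype is labelled WT. Of 4 libraries, 2 came from cells given 100 nM erianin, a plant bibenzyl known to bind tubulin, for 48 h, and 2 from cells given DMSO, its solvent, for 48 h. The labels do not state whether a group's libraries came from different cultures, and p-values therefore reflect only the spread between libraries, which may be technical. The title of the study names the kinases AKT and ASK1 as targets of the compound, and the 10 genes were read for the output of a neighbouring kinase pathway.

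ERK is the last kinase of a cascade that runs from growth factor receptors through RAS, RAF and MEK. Active ERK raises transcription of its own brakes: DUSP phosphatases, which remove the activating phosphates from MAP kinases, and Sprouty and SPRED proteins, which act on the cascade at or above RAF. It also raises ETV4 and ETV5, ETS transcription factors, in part by relieving repression by Capicua (CIC), a repressor that binds an octamer in the control regions of several of these genes. Because these transcripts are short-lived and respond to ERK, their levels are widely used as a readout of the pathway.

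The promoters of 6 members (DUSP6, SPRY2, SPRY4, SPRED1, SPRED2 and PHLDA1), in 9 windows, were found in the RefSeq table for build GRCh38.p14. DUSP6 is shown because its window holds the Capicua octamer, PHLDA1 and SPRED1 because the comparison with erianin below turns on them. Each window runs 5′ to 3′ on the gene's strand from 250 bases before the start of transcription to 20 bases after it, and capitals mark matches to the octamer on either strand (TGAATGAA, TGAATGGA, TCAATGAA or TCAATGGA, or their reverse complements).
DUSP6, chr12:89352482-89352751, minus strand: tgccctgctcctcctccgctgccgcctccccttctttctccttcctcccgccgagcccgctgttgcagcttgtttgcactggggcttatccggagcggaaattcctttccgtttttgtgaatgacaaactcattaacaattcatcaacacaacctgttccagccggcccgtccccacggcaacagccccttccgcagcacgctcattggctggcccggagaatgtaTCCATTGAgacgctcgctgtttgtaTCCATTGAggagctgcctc
PHLDA1, chr12:76031757-76032026, minus strand: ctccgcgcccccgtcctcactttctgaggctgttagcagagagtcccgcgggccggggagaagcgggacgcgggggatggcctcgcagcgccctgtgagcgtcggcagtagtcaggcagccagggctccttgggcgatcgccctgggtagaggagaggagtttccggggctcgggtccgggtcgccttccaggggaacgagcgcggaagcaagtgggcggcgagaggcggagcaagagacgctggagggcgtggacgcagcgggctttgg
SPRED1, chr15:38252586-38252855, plus strand: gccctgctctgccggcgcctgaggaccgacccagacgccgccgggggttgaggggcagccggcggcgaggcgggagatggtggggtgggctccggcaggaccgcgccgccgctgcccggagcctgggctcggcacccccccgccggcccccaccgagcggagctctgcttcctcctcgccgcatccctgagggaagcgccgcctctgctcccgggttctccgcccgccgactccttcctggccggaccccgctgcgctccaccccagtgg
The DUSP6 window holds the octamer 2 times, each as TCCATTGA on the gene's strand, the reverse complement of TCAATGGA. The first lies at bases -24 to -17 and the second at bases 2 to 9, counted from the start as base 1. Of 35116 promoter windows of the same length, 3.44% held at least 1 octamer and 0.302% held 2 or more. No other member window held an octamer. The AP-1 site TGANTCA was found in 1 member window, the second SPRED2 promoter, and in 7.12% of all windows. The CRE TGACGTCA (1.83% of all windows), the ETS site CCGGAAGT (4% of all windows) and the SRF CArG box (1.22% of all windows), each searched on both strands, had no match in the 9 windows. The SPRED1 window had a GC content of 78.1%, against 70.4% for PHLDA1 and 57% for DUSP6. These matches describe letters in a window, and binding was not measured.

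The libraries held from 59923935 to 63336545 deposited counts. The labelled cell type was matched by keratins of duct cells, with KRT8 from 5250 to 6533 CPM (counts scaled to a common library size by TMM) and KRT19 from 1380 to 1753 CPM. Other duct markers were low: EPCAM from 2.39 to 6.05 CPM, MUC1 from 2.80 to 5.15 CPM and CDH1 from 16.4 to 19.2 CPM. Markers of fibroblasts, blood and endothelium summed to 232.6 and 212.5 CPM under DMSO, against 215.9 and 259.7 CPM under erianin, most of it CD68, which lies between 192.6 and 244.1 CPM. PTPRC and LYZ were at 0 in all libraries but DMSO replicate 1. DMSO replicate 1 stood apart in COL3A1, at 8.83 CPM against at most 0.353 CPM in any other library. It was also the highest library in DCN (6.03 CPM against at most 0.128 CPM) and COL1A1 (9.27 CPM against at most 3.42 CPM). The same held for COL1A2 and LUM, but not for PDGFRB. The erianin libraries differed from each other by a median absolute log2 difference of 0.20 over well-expressed genes (mean log2 CPM of 3 or more), against 0.08 for the DMSO libraries. Over 8014 such genes with a GC value, log2 fold change and GC content had a Spearman correlation of 0.66, a description since genes of 1 library are not independent.

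All 10 genes were expressed, and their levels spanned a wide range. Levels between genes are given as FPKM, a level scaled by transcript length and library size, summed over the deposited rows of a gene. ETV4 was the most abundant, at 60.6 and 60.8 FPKM in DMSO replicates 1 and 2 and at 61.4 and 69.9 FPKM in erianin replicates 1 and 2. PHLDA1, a pleckstrin homology-like protein, followed at 45 and 40.9 FPKM in DMSO and at 46.5 and 39.5 FPKM in erianin. ETV5, the paralog of ETV4, came next at 24 and 22.7 FPKM in DMSO and at 23.8 and 18.2 FPKM in erianin. These 3 genes kept their order in every library, with no overlap between neighbours.

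The phosphatase genes lay in the middle of the order. DUSP5, which encodes a nuclear phosphatase of ERK, had a mean of 14.6 FPKM ± 0.94 in DMSO (SD, n = 2). DUSP6, whose product acts on ERK in the cytoplasm, had 12.5 FPKM ± 0.905, and DUSP4, a nuclear phosphatase, had 9.88 FPKM ± 0.82 (SD, n = 2 each). SPRY4, a Sprouty gene, had 9.53 FPKM ± 0.219 in DMSO (SD, n = 2). DUSP4 and SPRY4 were the only neighbours in the order whose ranges over the 4 libraries overlapped, from 8.89 to 10.5 FPKM and from 7.95 to 9.93 FPKM, and they changed places in DMSO replicate 2 and erianin replicate 1.

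The least abundant members were all feedback inhibitors of the Sprouty and SPRED families. SPRED2 was at 6.11 and 6.24 FPKM in DMSO and at 5.79 and 4.8 FPKM in erianin. SPRY2 was at 3.5 and 4.02 FPKM in DMSO and at 3.19 and 2.66 FPKM in erianin. SPRED1 was lowest, at 1.85 and 1.58 FPKM in DMSO and at 1.28 and 0.98 FPKM in erianin. In DMSO, ETV4 stood above 92.3% and SPRED1 above 46.3% of the 17090 genes tested. Summed FPKM of the 10 genes was 188 and 182.2 in DMSO and 189.7 and 178.4 in erianin, and the DMSO and erianin ranges overlapped.

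**Figure D1:**
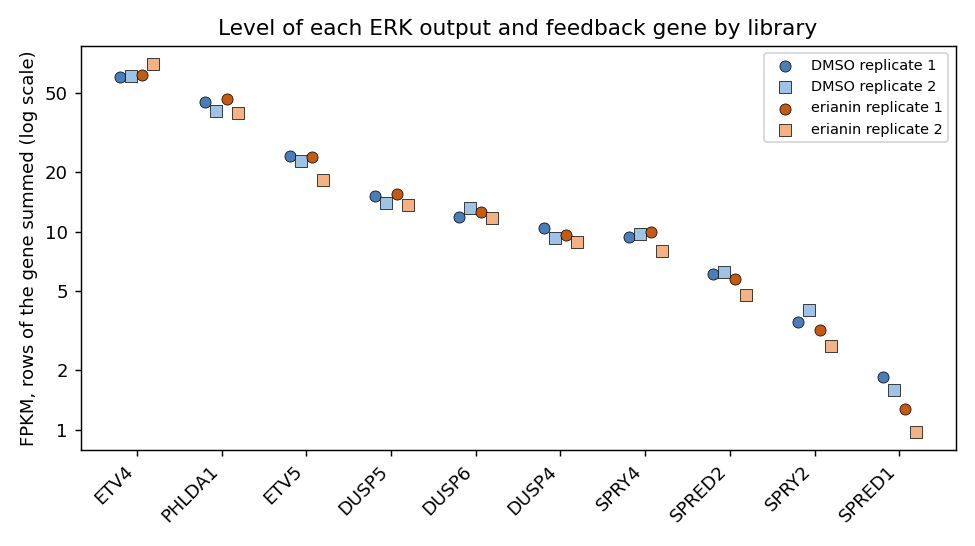
FPKM of each gene (log axis, rows of a gene summed) in the 4 libraries, with genes in the order of their DMSO mean. ETV4 lies between 60.6 and 69.9 FPKM and SPRED1 between 0.98 and 1.85 FPKM, and the erianin points lie within or close to the DMSO points for most genes.

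The comparison of erianin with DMSO asked whether transcripts that follow ERK differ after 48 h of the compound. None of the 10 genes passed edgeR's quasi-likelihood test (0 of 10 at an adjusted p under 0.05), where 0.041% of all 17090 genes tested passed. At an unadjusted p under 0.05 there was 1 member, SPRED1, on the low side, where 8.1% of all genes passed and 5.89% did so on the low side. With other tools 0 of 10 passed too: DESeq2 had 0, limma-voom 1 and limma on log2 FPKM 0 members at an unadjusted p under 0.05. Of all 17090 genes tested, 1511 were under 0.05 with DESeq2 and 1673 with limma-voom. With limma, 1056 were so on log2(FPKM + 1) and 980 on log2(FPKM + 0.1). The members split evenly, 5 above 0 and 5 below, with a median log2 fold change of 0.0018 beside -0.01 over all genes tested, of which 48.7% were above 0 and 51.3% below. Every estimate was smaller than 1.5-fold, and the 95% interval lay within 1.5-fold either way for 8 of 10 genes and within 2-fold for all 10. SPRY2 and SPRED1 are the members whose intervals reach past 1.5-fold, on the low side. A p that misses the threshold does not show that the levels were alike, and the intervals give the sizes these libraries leave possible. The intervals borrow degrees of freedom across genes, and with the 2 residual ones alone they would be wider at the same SE. Fewer cells of a kind and less RNA per cell cannot be told apart in these bulk samples.

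**Figure D2:**
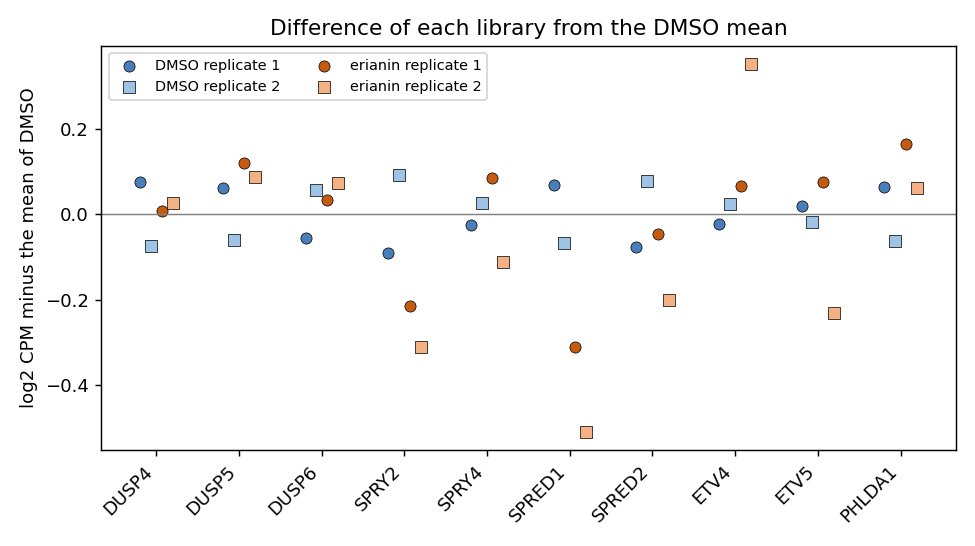
Log2 CPM of each library minus the mean of the DMSO libraries, for the 10 genes. Both erianin libraries lie below both DMSO libraries for SPRY2 and SPRED1 and above them for DUSP5 and ETV4, and erianin replicate 2 has the most distant point for ETV4 (0.35) and SPRED1 (-0.51).

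Among the phosphatase genes, levels in erianin lay close to those in DMSO. DUSP6 (GRCh38 chromosome 12, 89347232 to 89353271, minus strand), a direct negative feedback gene of ERK, had 46.2 and 50 CPM in DMSO replicates 1 and 2 and 49.2 and 50.6 CPM in erianin replicates 1 and 2. The groups overlapped, and the log2 fold change was 0.05 with a 95% interval from -0.21 to 0.32 (edgeR, adjusted p = 0.888). DUSP4 (chromosome 8, 29333064 to 29350668, minus strand) had 64.4 and 58 CPM under DMSO, against 61.4 and 62.3 CPM under erianin. The erianin values lay between the DMSO values, with a log2 fold change of 0.01 (interval from -0.24 to 0.27). DUSP5 (chromosome 10, 110497838 to 110511544, plus strand) had 42.2 and 38.8 CPM under DMSO, against 44 and 43 CPM under erianin. Its groups did not overlap and its log2 fold change was 0.10 ± 0.12 (SE), smaller than its error (edgeR, adjusted p = 0.763). The estimate turned to -0.02 with an offset for GC content and length.

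The Sprouty and SPRED genes held the lowest estimates. SPRED1 (chromosome 15, 38252326 to 38357249, plus strand), whose product recruits neurofibromin to switch off RAS, had 13.3 and 12.1 CPM under DMSO, against 10.2 and 8.89 CPM under erianin. Both erianin libraries were below both DMSO libraries. Its log2 fold change was -0.41 ± 0.17 (SE), with a 95% interval from -0.80 to -0.02 (edgeR, unadjusted p = 0.0418 and adjusted p = 0.575). It ran from -0.52 to -0.31 when each library was left out, and was -0.34 without DMSO replicate 1, the library with COL3A1. SPRY2 (chromosome 13, 80335976 to 80340951, minus strand), an inhibitor of receptor tyrosine kinase signalling, had 9.12 and 10.4 CPM under DMSO, against 8.37 and 7.83 CPM under erianin. Its groups did not overlap either, and the log2 fold change was -0.27 ± 0.18 (SE; edgeR, adjusted p = 0.609). Genes whose groups do not overlap are common here: 24.4% of all genes tested were lower in this sense and 21.7% higher, 46.1% in all, beside 2 of 10 members lower (SPRY2 and SPRED1) and 2 of 10 higher (DUSP5 and ETV4).

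The other members of these families overlapped between groups. SPRED2 (chromosome 2, 65310851 to 65432637, minus strand), the paralog of SPRED1, had 27.7 and 30.8 CPM under DMSO, against 28.2 and 25.4 CPM under erianin, a log2 fold change of -0.12 (interval from -0.45 to 0.20). SPRY4 (chromosome 5, 142310427 to 142326455, minus strand) had 51.5 and 53.3 CPM under DMSO, against 55.5 and 48.5 CPM under erianin. Its erianin values lay on either side of DMSO, and its log2 fold change of -0.01 (interval from -0.29 to 0.27) was 0.08 without erianin replicate 2. The ratio of SPRED2 to SPRED1 in FPKM was 3.3 and 3.95 in DMSO and 4.52 and 4.9 in erianin. The ratio of SPRY4 to SPRY2 was 2.68 and 2.41 in DMSO and 3.11 and 2.99 in erianin. In each pair the less abundant paralog took a smaller part in both erianin libraries than in either DMSO library. These ratios were not tested. With an offset for GC content and length (38.9% GC for SPRED1, 48.7% for SPRED2), the log2 fold changes were -0.09 for SPRED1 and -0.04 for SPRED2, so the SPRED pair lay close together, while SPRY2 was at -0.21 and SPRY4 at 0.06.

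The ETS factor genes lay apart in erianin replicate 2. ETV4 (chromosome 17, 43527844 to 43579620, minus strand) had 129 and 133.4 CPM under DMSO, against 137.4 and 167.3 CPM under erianin. Both erianin libraries were above DMSO, replicate 2 far more than replicate 1, and the log2 fold change was 0.22 ± 0.12 (SE; edgeR, adjusted p = 0.576). It was 0.07 without erianin replicate 2. Without erianin replicate 1 it was 0.34, in a fit that holds no spread between erianin libraries. ETV5 (chromosome 3, 186046308 to 186110318, minus strand) had 98.2 and 95.7 CPM under DMSO, against 102 and 82.6 CPM under erianin. Its erianin replicate 1 was the highest and its erianin replicate 2 the lowest of the 4 libraries, and the log2 fold change of -0.07 (interval from -0.35 to 0.21) became 0.08 without erianin replicate 2. The ratio of ETV4 to ETV5 in FPKM was 2.53 and 2.67 in DMSO, 2.58 with erianin replicate 1 and 3.84 with the other erianin library. The high ratio was thus seen in 1 of 4 libraries.

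PHLDA1 (chromosome 12, 76025447 to 76033932, minus strand), an ERK-responsive gene known to restrain growth factor receptor signalling, had the highest CPM of the members, at 290.9 and 266.6 in DMSO and 311.8 and 290.5 in erianin. Erianin replicate 2 lay within the DMSO range by a small margin, so the groups overlapped. Its log2 fold change was 0.11 ± 0.10 (SE), with a 95% interval from -0.11 to 0.33 (edgeR, adjusted p = 0.678).

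The estimates of the 10 genes were next read against GC content, since fold changes across all genes followed it. Member transcripts ranged from 38.9% GC (SPRED1) to 60.8% GC (ETV4), taken from the longest transcript of GENCODE release 29. These are also the members with the lowest and the highest log2 fold change. Across the 10 members the Spearman correlation of GC content and log2 fold change was 0.47, and that of mean log2 CPM and log2 fold change was 0.75 (descriptions over genes that share the same 4 libraries). SPRED1 at -0.41 stood beside a median of -0.27 over 836 genes within 2 percentage points of its GC content, at their percentile 27.5. ETV4 at 0.22 stood beside a median of 0.16 over 1096 such genes, at percentile 73. DUSP4, DUSP5, SPRY4 and ETV5 lay between percentiles 43.6 and 48.1 of their own GC neighbours. SPRY2 at -0.27 stood beside a median of -0.07, at percentile 18.6.

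PHLDA1 and DUSP6 lay above the median of their neighbours in GC content. PHLDA1, at 44.3% GC, had a log2 fold change of 0.11 where 1096 genes of like GC had a median of -0.18, and stood at their percentile 89.1. DUSP6, at 46.7% GC, had 0.05 beside a median of -0.12, at percentile 77.8. After an offset fitted in every library had taken out its dependence on GC and transcript length, the log2 fold change was 0.40 for PHLDA1 (95% interval from 0.20 to 0.59; edgeR, unadjusted p = 0.00197 and adjusted p = 0.738) and 0.21 for DUSP6 (interval from -0.05 to 0.47). Neither passed over all genes. PHLDA1 was 1 of 10 members with an unadjusted p under 0.05 with the offset (edgeR), beside 1108 of all 17090 genes tested. In that fit SPRED1 was at -0.09 (interval from -0.39 to 0.22) and ETV4 at 0.03 (interval from -0.13 to 0.19). Without the offset these 2 genes were at -0.41 and 0.22. PHLDA1 kept a value between 0.29 and 0.50 when each library was also left out, and it passed the test without erianin replicate 1 (edgeR, log2 fold change 0.50, adjusted p = 0.0041), where 3.82% of all genes passed. That fit rests on a single erianin library and holds no spread between erianin libraries, so passing there adds no evidence for PHLDA1. With GC content alone removed, an alternative added after seeing the data, PHLDA1 was at 0.31. Its longest annotated transcript has 8069 nucleotides, while the deposited counts and FPKM imply 5739 to 5913 nucleotides for its rows.

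**Figure D3:**
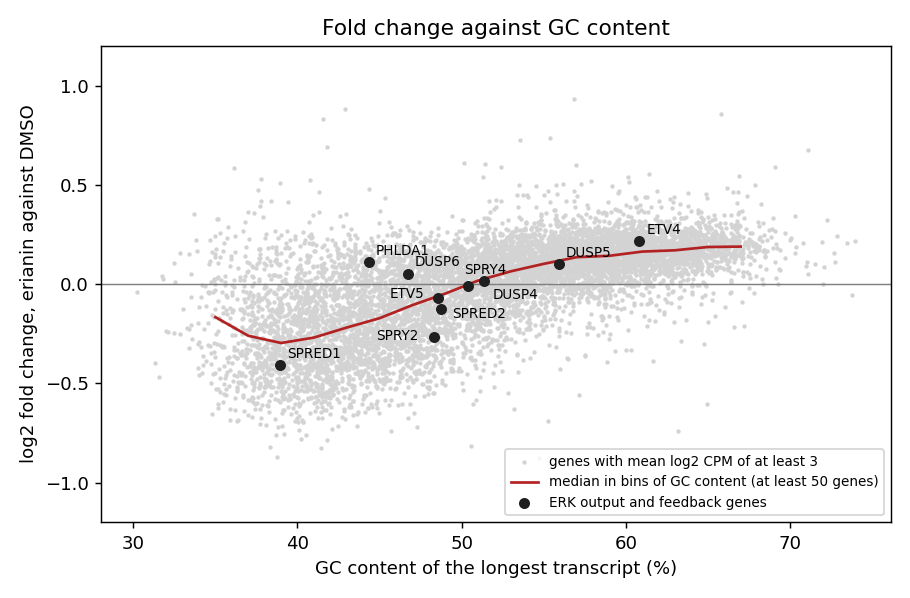
Log2 fold change of erianin against DMSO (vertical axis) against GC content in percent (horizontal axis) for the same 8014 well-expressed genes, of which 13 lie outside the axis. The line joins medians in bins of 2 percentage points, and black points are the 10 genes. SPRED1 and ETV4 are the members of lowest and highest GC content. PHLDA1 and DUSP6 lie above the line, and SPRY2 and SPRED1 lie below it.

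**Figure D4:**
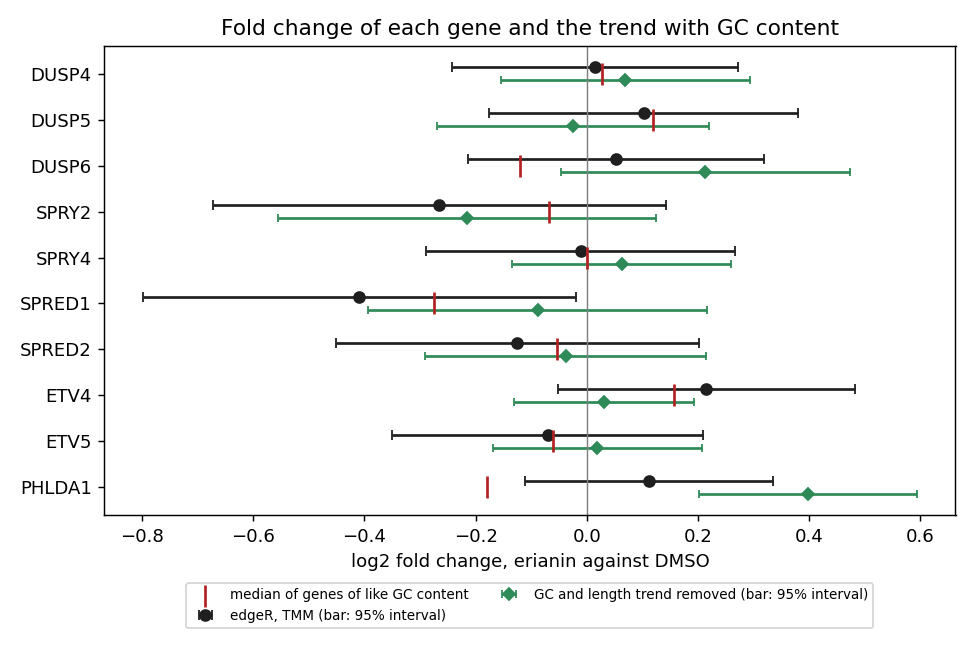
Log2 fold change of each gene from edgeR with TMM scaling (circles) and with the trend with GC content and length removed (diamonds), each with its 95% interval, and the median of genes of like GC content (vertical marks). Of the intervals from TMM scaling, the one of SPRED1 ends below 0, and of those with the trend removed, the one of PHLDA1 lies above 0.

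The deposited tables give several rows for each gene ID with no transcript names, and the rows of 3 members were divided unequally between libraries. Row 1 of the 3 PHLDA1 rows held 17134 counts in DMSO replicate 1, 11421 in DMSO replicate 2, 5045 in erianin replicate 1 and 10603 in erianin replicate 2. That is 89.2% and 68.6% of the gene's counts in DMSO and 25.4% and 65.7% in erianin. Row 3 of PHLDA1 went the other way, with 991 and 2721 counts in DMSO, 11429 in erianin replicate 1 and 2453 in the other erianin library. The rows therefore exchanged counts while their sum lay between 16143 and 19857. The share of the leading row moved by 63.8 percentage points, more than in 92.4% of 8576 genes with several rows and a mean of at least 300 counts. Taking the largest row alone gave PHLDA1 a log2 fold change of -0.70 (edgeR, adjusted p = 0.9) in place of 0.11 for the sum. The implied lengths of the rows 1 and 3, 5739 and 5911 nucleotides, differ little.

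ETV4 had 11 rows. Row 3 held 48.1% and 57.3% of the counts in DMSO and 58.2% and 47.6% in erianin, and row 4 held 32.5% and 21% in DMSO and 19.6% and 33.6% in erianin. DMSO replicate 1 thus resembled erianin replicate 2 in this split. The first SPRY4 row held 810 counts in DMSO replicate 1, 0 in DMSO replicate 2, 258 in erianin replicate 1 and 154 in erianin replicate 2. For ETV4 and SPRY4 the share of the leading row moved by 10.6 and 22.1 percentage points. That was more than in 44.1% and 64% of the same 8576 genes, so divisions of this size were common. In the other members the leading row kept at least 91.3% of the counts in every library. The log2 fold changes and CPM above use the summed counts of all rows, which do not depend on this division, unless the largest row is named. Summed FPKM, with its order and ratios, can depend on it where rows differ in length. Rows 3 and 4 of ETV4 have implied lengths of 2335 and 1775 nucleotides.

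**Figure D5:**
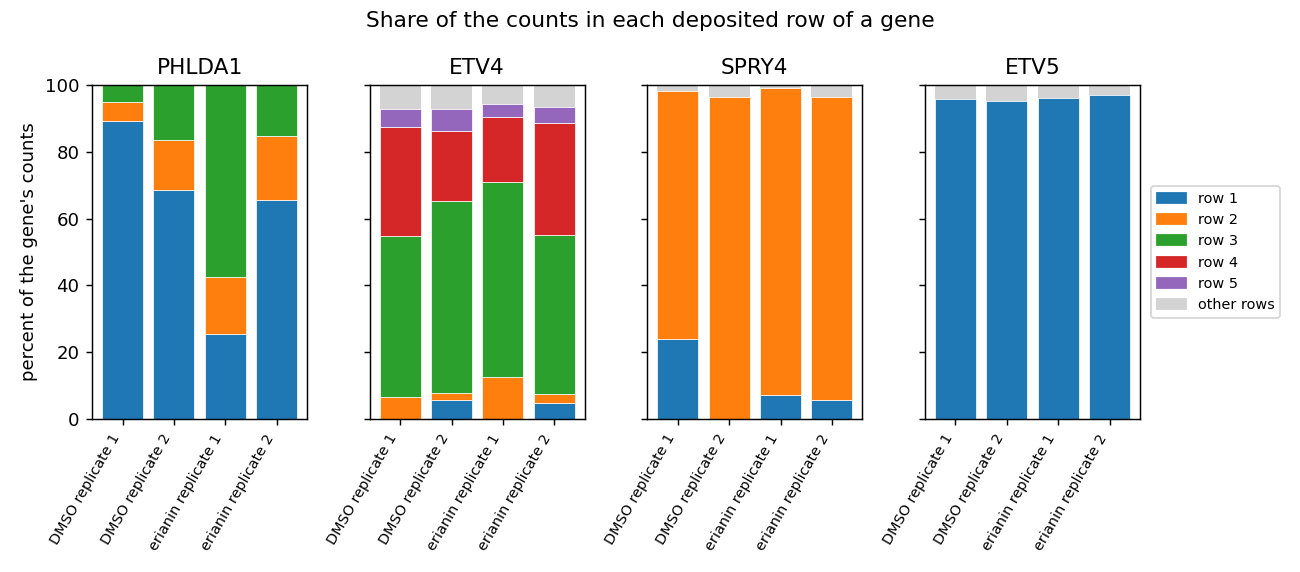
Percent of the counts of PHLDA1, ETV4, SPRY4 and ETV5 in each deposited row, by library, with rows that reach 5% in no library pooled in grey. Row 1 of PHLDA1 stands at 25.4% in erianin replicate 1 against 65.7% in erianin replicate 2, while the leading ETV5 row stays between 95.3% and 97% in all 4.

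Reads shared with neighbours touch some members. DUSP6 shares 1875 of its 4632 exonic bases with AC024909.2, a gene on the opposite strand, and PHLDA1 shares 779 and 553 of 8069 with AC011611.4 and AC011611.3, also opposite. These partners of DUSP6 and PHLDA1 had at most 0.561 CPM in any library. ETV4 shares 68 exonic bases with DHX8 on the opposite strand, which had 19.0 to 24.4 CPM. ETV5 shares 164 with DGKG on its own strand, which had 5.06 to 6.03 CPM. Whether counting used strand is not given in the sources used here, so these 4 genes are uncertain to that extent. No other gene shared at least 200 nucleotides at 95% identity with a member's transcripts.

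Other genes of the pathway, from lists in which 55 genes were tested, did not pass either (0 of 55 by edgeR, where 0.041% of all genes passed). At an unadjusted p under 0.05 there were 5 of 18 genes of the cascade from RAS to ERK and 1 of 10 in the ETS and Capicua list on the low side, where 5.89% of all genes were. On the high side there was 1 of 6 other phosphatase genes and 1 of 18 further ERK-responsive transcripts. Of all genes, 8.1% passed in either direction, the 5.89% on the low side among them. Among 6 other MAP kinase phosphatase genes tested, 5 estimates were positive and the median was 0.10, or 0.01 with the trend with GC content and length removed. DUSP9, an ERK phosphatase gene, had 46.7 and 46.3 CPM under DMSO, against 49.3 and 58.5 CPM under erianin, and its log2 fold change of 0.21 was 0.02 with the trend removed. DUSP8, whose product acts on JNK and p38, had 1.44 and 1.43 CPM under DMSO, against 2.2 and 2.83 CPM under erianin, a log2 fold change of 0.81 ± 0.31 (SE; edgeR, adjusted p = 0.575). It was 0.68 with the trend removed. The other Sprouty and SPRED genes, 3 in number, were low, among them SPRY1 from 6.78 to 8.88 CPM and SPRED3 from 3.51 to 6.06 CPM, and both overlapped between groups. The log2 fold changes of these 3 genes ran from -1.14 (SPRY3) to 0.34 (SPRED3). Their median was -0.07, and it turned to 0.09 with the trend removed.

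Among 18 further transcripts known to follow ERK, 13 estimates were positive, the median was 0.11 and the range ran from -0.36 to 0.48. FOSL1, an AP-1 subunit gene that ERK induces, had 412 and 415.3 CPM under DMSO, against 459.8 and 541 CPM under erianin, a log2 fold change of 0.27 ± 0.11 (SE; edgeR, adjusted p = 0.575). PLAUR, the urokinase receptor gene, had 41.9 and 45.1 CPM under DMSO, against 49.9 and 54.5 CPM under erianin. Both genes were higher in both erianin libraries. The median GC content of these 18 genes was 55.5%, and with the trend with GC content and length removed their median was -0.01. FOSL1 was then at 0.07 and PLAUR at 0.11.

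Of 10 genes for ETS factors, Capicua and its cofactors, 4 were above 0 and 6 below, with a median of -0.06 that turned to 0.03 with the trend removed. ELK3, a ternary complex factor gene, had 15.9 and 16 CPM under DMSO, against 12.2 and 10 CPM under erianin, a log2 fold change of -0.52 ± 0.17 (SE; edgeR, adjusted p = 0.575). It was -0.29 with the trend removed. CIC, the gene of Capicua, had 72.9 and 81.4 CPM under DMSO, against 86.6 and 96.2 CPM under erianin, a log2 fold change of 0.25 ± 0.11 (SE). It was 0.18 with the trend removed. Of 18 genes of the cascade from RAS to ERK, 6 were above 0 and 12 below, with a median of -0.22, or -0.10 with the trend removed. SOS1 and SOS2, exchange factors that load RAS with GTP, had log2 fold changes of -0.68 ± 0.22 and -0.79 ± 0.29 (SE), which were -0.38 and -0.53 with the trend removed. Both were lower in both erianin libraries.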

How the data were processed

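Total RNA of 4 SW1990 libraries (2 DMSO, 2 erianin, grouped by title) was sequenced, with RNA extracted by TRIzol and standard Illumina libraries, per the labels' protocols. One deposited table holds whole-number estimated counts by row, not normalized, and another holds the authors' deposited FPKM for the same rows, per the file headers. GRCh38, featureCounts 2.0.1, StringTie 2.2.1, STAR and fastp appear, without roles, in the submitters' processing notes. The 107429 rows were summed to 25798 gene IDs. Gene symbols were looked up by ID, positions and GC content from GENCODE release 29 (GRCh38), promoters from RefSeq.

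edgeR 4.0.16 (R 4.3.3) was fitted on all genes with TMM factors and filterByExpr (minimum count 10), which left 17090 genes, all 10 members among them, with the group as the sole term and 2 residual degrees of freedom. The quasi-likelihood test was adjusted by Benjamini-Hochberg over all genes, at a threshold of 0.05. Standard errors are the log2 fold change over the square root of F. Intervals use the 95% points of t at edgeR's total degrees of freedom, the residual ones plus those borrowed across genes. The F test uses the same total. The implied length of a row is its count over its FPKM, scaled by genes with 1 row and 1 transcript. The offset for GC content and length used natural splines (5 degrees of freedom). Alternatives were DESeq2 1.42.0, limma 3.58.1, other scalings and filters, left-out libraries, a replicate block and the largest row. The fits were tested on simulated data. There edgeR recovered 4.67% of genes changed 1.25-fold, 35.3% of those changed 1.5-fold and 86% of those changed 2-fold. All members are reported, and from each other list the 2 with the smallest p whose mean log2 CPM reached 1. The members and lists were chosen with earlier results of these data known. SE, SD and intervals cover 2 libraries a group.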

Additional observations from a re-analysis of the deposited data

How the results depend on the processing

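The count of 0 members past the threshold held in all alternatives but 2: it was 1 without erianin replicate 1 (ETV4) and 1 with the GC and length offset without erianin replicate 1 (PHLDA1), so leaving out each library gave 0 to 1. The members' median log2 fold change of 0.0018 was -0.0955 with library totals alone, -0.0852 with log2(FPKM + 1) and -0.0936 with log2(FPKM + 0.1), where the median of all genes was -0.11, -0.05 and -0.09. It ran from -0.0532 to 0.0511 when each library was left out. Each such fit leaves a single library in a group, so its p-values and counts of genes passing hold no spread within that group. Over all genes 7 passed (2 higher, 5 lower), against 21 with DESeq2 (12 higher, 9 lower), 0 with limma-voom (1673 at an unadjusted p under 0.05), 0 with the largest row (edgeR, 771 at an unadjusted p under 0.05), 2 with library totals and with either FPKM scale (0 higher), 3 with GC content alone removed, and from 24 (without erianin replicate 2) to 3166 (without erianin replicate 1) when each library was left out. The fits without DMSO replicate 1 and 2 gave 62 and 73. With the offset these 4 fits gave 12, 37, 692 and 25 (without DMSO replicate 1, DMSO replicate 2, erianin replicate 1 and erianin replicate 2).

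The replicate number as a block gave 334 genes (66 higher, 268 lower), or 14 with the GC and length offset, and changed no call of a member. Libraries of the same number had a correlation of deviations of 0.22 over 7986 genes, but the labels give the numbers no shared origin.

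Of 220 log2 fold changes of single members under the alternatives, 38 changed sign, none of them of SPRED1 or SPRY2. SPRY4 (-0.01) was at 0.0047 with DESeq2 size factors, 0.0071 with upper-quartile factors, 0.0048 with DESeq2, 0.0626 with the offset, 0.0622 with the offset and the block, 0.0108 with GC alone and 0.0883 with the largest row. Leaving out each library gave SPRY4 from -0.1218 to 0.0847, ETV5 from -0.2403 to 0.0754, DUSP4 from -0.0589 to 0.0908 and DUSP6 from -0.0043 to 0.1102. ETV5 was at 0.0189 with the offset, 0.0164 with the offset and the block and 0.0026 with GC alone. DUSP5 was at -0.0243 with the offset and -0.0233 with the offset and the block. DUSP4 and DUSP6 were at -0.0852 and -0.0465 with library totals, -0.0808 and -0.0267 with log2(FPKM + 1), and -0.0883 and -0.0286 with log2(FPKM + 0.1). PHLDA1 was at -0.7041 with the largest row and at -0.0009 and -0.001 with the 2 FPKM scales. With the offset and a library left out, SPRY4 was at 0.0473, 0.0772, 0.0217 and 0.1017 (same order of libraries as above). ETV5 was then at 0.0343, 0.002 and 0.1026 without DMSO replicate 1, DMSO replicate 2 and erianin replicate 2. DUSP4, DUSP5 and SPRED2 were at -0.0179, -0.1073 and 0.041 without DMSO replicate 2, DUSP5 at -0.0943 without erianin replicate 1 and ETV4 at -0.0297 without erianin replicate 2. The cause of these turns was not tested. With 2 libraries a group and degrees of freedom borrowed across genes, intervals of the members reached at most 2-fold.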
